A study of Mus musculus with 7 samples.

Results

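The genes described here encode the conjugating enzymes of phase II metabolism: glutathione S-transferases (symbols that start with Gsta, Gstm, Gstp, Gstt, Gstk, Gsto, Gstz or Mgst), UDP-glucuronosyltransferases and their relatives (Ugt1, Ugt2 and Ugt3) and cytosolic sulfotransferases (Sult). They were chosen by symbol, through the transcript accession of each array probe, and no measured value entered the rule. It took 80 of 55681 probes and 58 of 21154 named genes. Another 12 symbols of these families in the RefSeq gene table had no probe matched here, among them Ugt1a1, Ugt1a9, Gsta1 and Ugt2a2.

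By its title, the study asked what activated β-catenin, the effector of Wnt signalling, does to the dermal sheath, the mesenchymal layer around the hair follicle. Both groups held cells from dorsal skin at postnatal day 15, sorted as YFP-positive and negative for CD34, ALP (alkaline phosphatase) and ITGα8 (integrin α8), with 10 ng of RNA amplified per sample and hybridised to a 1-colour mouse array. The control label was on 3 arrays from 4 mice, with 2 mice pooled on array 3, and the cΔex3 label, that of β-catenin activation, on 4 arrays from 6 mice, with 2 mice pooled on array 2 and 2 on array 3. The labels call the arrays of a group biological replicates. The Cre line, the driver of YFP, the control genotype, the strain and the sex are not given in the sources used here, and by its name the cΔex3 allele encodes β-catenin without the exon whose residues mark it for degradation.

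Conjugation makes fat-soluble compounds fit for export by joining them to a polar group. Glutathione S-transferases join electrophiles to the peptide glutathione, UDP-glucuronosyltransferases add glucuronic acid to steroids, bilirubin, phenols and drugs, and sulfotransferases move a sulfate from the donor PAPS to steroids, phenols and amines. The liver is the organ best known for all 3 reactions, while skin and fat hold smaller sets of these enzymes.

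A level below is log2 of the processed signal minus the 75th percentile of that array, so that 0 is that percentile. A difference is the mean level of the cΔex3-labelled arrays minus that of the control-labelled arrays, with its standard error and adjusted p from limma (two-sided, Benjamini-Hochberg over all 18031 genes tested, threshold 0.05), always with n = 3 and 4 arrays. The percentile itself lay between 756 and 907 on the control-labelled arrays and between 1348 and 2160 on the others, so that an equal signal reads lower on the latter. Levels of different genes are not set against each other, since each probe has a brightness of its own.

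The arrays did not hold dermal sheath transcripts alone, and the groups are named by their labels throughout. The median level of 20 hepatocyte markers, none of them a conjugation gene, lay between 8.86 and 9.18 on the control-labelled arrays and between −1.14 and 1.57 on the cΔex3-labelled arrays, and 20 of 20 passed as lower. That of 15 adipocyte markers lay between 0.62 and 2.60 on the former and between 6.27 and 7.73 on the latter, with 13 higher. The list for dermal sheath and fibroblasts lay between −0.77 and −0.25 against 2.00 and 3.04, with 13 of 14 tested members higher, its contractile marker Acta2 was well above background on all 7 arrays, and Col11a1 on 0 of 3 control-labelled and 3 of 4 cΔex3-labelled arrays. All 20 hepatocyte and all 15 adipocyte markers were well above background on every array. Pairs of control-labelled arrays correlated across genes at 0.979 to 0.984, pairs of cΔex3-labelled arrays at 0.917 to 0.972 and mixed pairs at 0.748 to 0.809. What part these cell types have in the differences below was not tested, and in bulk RNA fewer cells of a type and less RNA per cell cannot be told apart.

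Most conjugation genes were lower on the cΔex3-labelled arrays. Of the 58 genes, 53 passed the filter on dim probes (well above background on at least 3 of the 7 arrays) and were tested. Of these, 33 were lower (62.3%, beside 29.0% of all genes tested), 7 were higher (13.2%, beside 24.0%) and 13 did not pass. The median difference was −2.09, beside −0.08 over all genes. Differences of over 8-fold made up 20 of the lower genes, where 5.37% of all genes were lower by that much, and 4 of the higher ones, where the share of all genes was 6.93%. The levels of the groups did not overlap for 35 lower and 7 higher genes, beside 58.7% of all genes in either direction. Of the 40 genes past the threshold, 29 kept call and direction in all 17 other settings tried. The file headers place 2 control-labelled arrays and 1 cΔex3-labelled array in row 1 of the slide, and 1 and 3 in row 2. Direction held for 40 of 40 within each row, but these genes had groups without overlap, so that outcome was fixed in advance.

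**Figure D1:**
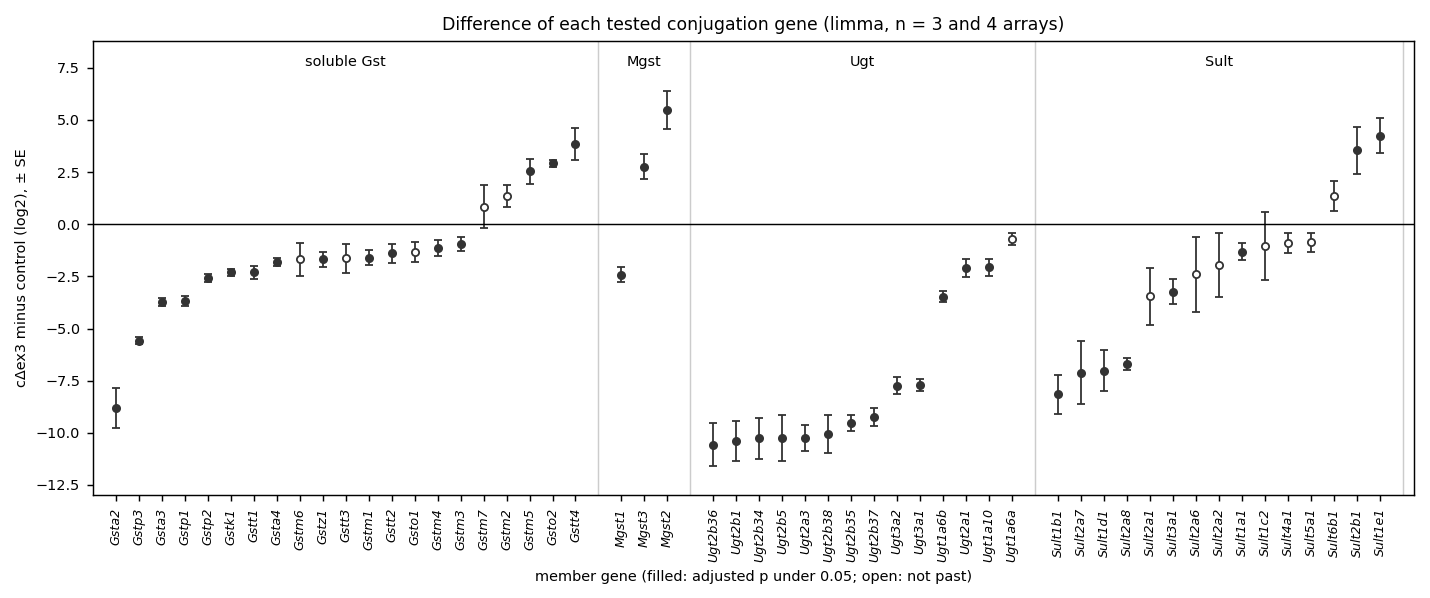
Difference of each tested conjugation gene (cΔex3-labelled minus control-labelled, log2), with bars of 1 standard error from limma; filled points passed an adjusted p of 0.05 and open points did not. The Ugt genes reach the lowest values, Ugt2b36 at −10.56, and Mgst2 the highest at 5.49.

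The largest differences were those of UDP-glucuronosyltransferase genes. Of 14 tested, 13 were lower and 0 were higher by limma, beside 29.0% lower and 24.0% higher of all genes. At an unadjusted p under 0.05, 0 were higher, and their median difference over all 14 was −9.38. All 7 Ugt2b genes measured, whose enzymes glucuronidate steroids, bile acids and drugs, were lower, with differences from −10.56 to −9.23, the smallest of which, for Ugt2b37, is 599-fold. Since these genes are neighbours that were all lower, the 100 bases before the transcription start are shown for the 4 that are most alike, from RefSeq promoters on GRCm38.p6, where 50 of the 58 genes had a promoter (62 promoters in all). Capitals mark the longest run of letters that these 4 sequences share, which was looked for after the promoters had been read. Each sequence reads 5′ to 3′ on the minus strand, at chr5:87140341-87140440 for Ugt2b5, chr5:87092556-87092655 for Ugt2b36, chr5:87254789-87254888 for Ugt2b37 and chr5:87424204-87424303 for Ugt2b38.
Ugt2b5: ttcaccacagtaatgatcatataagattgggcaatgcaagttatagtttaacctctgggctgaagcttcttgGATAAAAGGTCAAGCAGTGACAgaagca
Ugt2b36: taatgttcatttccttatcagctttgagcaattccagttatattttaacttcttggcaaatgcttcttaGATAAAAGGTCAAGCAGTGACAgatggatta
Ugt2b37: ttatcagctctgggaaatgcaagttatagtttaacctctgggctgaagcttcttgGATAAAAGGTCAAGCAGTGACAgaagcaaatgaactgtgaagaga
Ugt2b38: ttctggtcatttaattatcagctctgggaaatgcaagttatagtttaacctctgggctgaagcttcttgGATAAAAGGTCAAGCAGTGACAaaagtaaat

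The shared run is 22 bases long and stood in the promoters of 4 of the 7 Ugt2b genes and of no other gene among 32851 promoters, searched on both strands. The Ugt2b promoters are copies of each other in part: Ugt2b37 and Ugt2b38 were 84.8% identical over the upstream 250 bases, while the lowest identity among the Ugt2b genes was 46.3%, between Ugt2b1 and Ugt2b5. With genes this alike, a probe of 1 gene may read transcripts of another. The shared letters are a description and say nothing of binding.

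Among the Ugt2b genes the order of the differences depended on the setting: Ugt2b36 had the lowest value here, and Ugt2b38 the lowest with normexp (−9.71, beside −9.51 for Ugt2b36) and in the deposited series values (−8.99, beside −8.77). The levels of Ugt2b36 were 6.57, 6.52 and 6.20 on the control-labelled arrays against −7.09, −3.04, −3.76 and −2.63 on the cΔex3-labelled arrays, a difference of −10.56 ± 1.03 (SE; limma, adjusted p = 0.000242). The groups did not overlap, and array 1 was the lowest of its group, where the probe was not well above background. Ugt2b1 stood at 5.55, 4.96 and 4.26 against −8.05, −5.24, −4.83 and −3.70, a difference of −10.38 ± 0.97 (limma, adjusted p = 0.000203), and it too was not above background on cΔex3-labelled array 1. Ugt2b34 gave 6.95, 6.97 and 7.12 against −6.04, −1.95, −2.95 and −2.08, which is −10.27 ± 0.97 (limma, adjusted p = 0.000208). Its control-labelled arrays had an SD of 0.09, while the cΔex3-labelled arrays had an SD of 1.91. Ugt2b5 showed the same split, with 7.54, 7.41 and 7.38 against −5.96, −1.52, −2.47 and −1.26 and a difference of −10.24 ± 1.09 (limma, adjusted p = 0.000362). Ugt2b38 read 7.86, 7.85 and 7.61 against −4.90, −1.28, −2.06 and −0.95, so that it differed by −10.07 ± 0.91 (limma, adjusted p = 0.000179). Array 1 was thus the lowest cΔex3-labelled array for each of these genes. Ugt2b35 and Ugt2b37 differed by −9.54 and −9.23.

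The residual Ugt2b signal was not even over the cΔex3-labelled arrays, and hepatocyte marker values stand beside it here. The median level of the 7 Ugt2b genes was −6.04, −2.36, −3.27 and −2.36 on the cΔex3-labelled arrays 1 to 4, where the median of the hepatocyte list was −1.14, 1.57, 0.29 and 1.13. Array 1 was the lowest and array 3 the next lowest by both measures, over 4 arrays only. Within slide row 1 Ugt2b36 differed by −13.64 and within row 2 by −9.35. The part of hepatocyte RNA in the Ugt2b levels was not tested.

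Ugt2a3, which lies between Ugt2b37 and Ugt2b38 on chromosome 5, moved as they did. It stood at 5.99, 6.09 and 5.49 on the control-labelled arrays against −6.08, −3.80, −4.21 and −3.41 on the others, a difference of −10.23 ± 0.62 (limma, adjusted p = 3.63e-05). Ugt2a1, known for its role in the nose, differed by −2.09 ± 0.44 (limma, adjusted p = 0.00636), a call lost when only the 4 arrays of 1 mouse were used (−1.83, adjusted p = 0.0914). Ugt3a1 and Ugt3a2, whose enzymes use sugar donors other than UDP-glucuronic acid, differed by −7.71 ± 0.29 and −7.73 ± 0.42. Both lie on chromosome 15, and the groups did not overlap for either gene.

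The Ugt1a genes differed less. They share their later exons and differ in the first, and where their probes lie is not known here, so that a probe may read several of them. Ugt1a6b, a phenol-conjugating form, was lower by 3.47 on the log2 scale, with an SE of 0.28 (limma, adjusted p = 0.000112), and its 2 probes gave −3.47 and −2.66. Ugt1a10 differed by −2.07 ± 0.40 (limma, adjusted p = 0.0045). Ugt1a6a, at −0.73 with an adjusted p of 0.0694, was the only tested Ugt gene that did not pass, although its groups did not overlap; it passed under normexp (−0.74, adjusted p = 0.0289) and without cΔex3-labelled array 1 (−0.90, adjusted p = 0.0347).

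**Figure D2:**
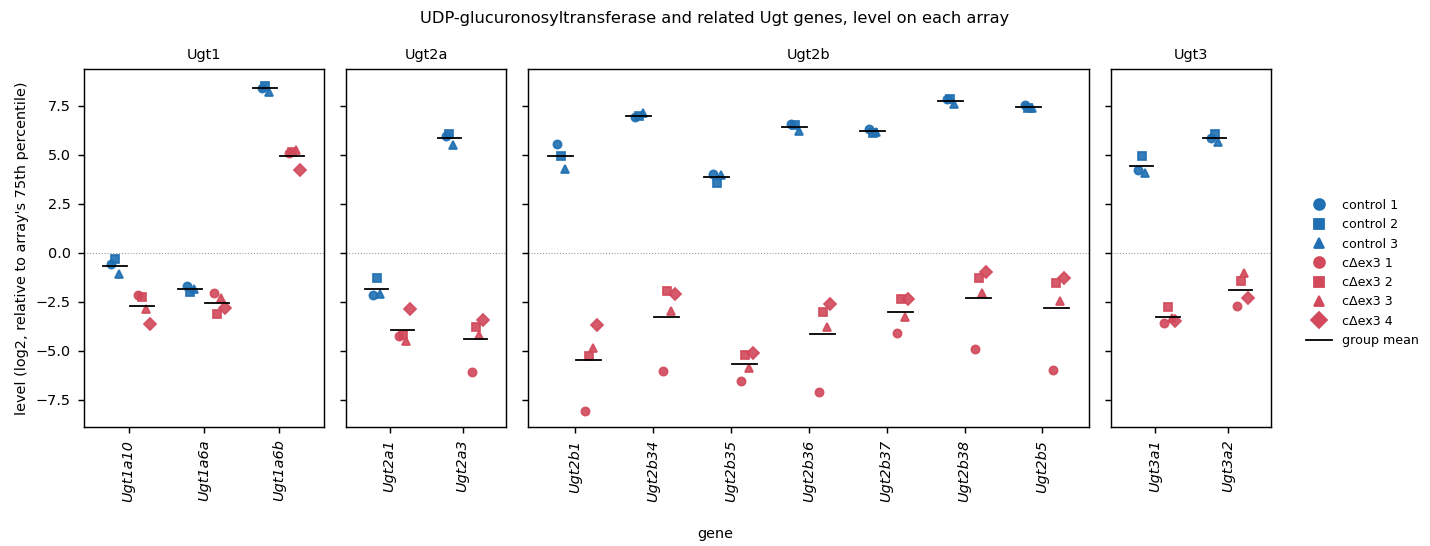
Level of each Ugt gene on each array (log2, relative to the array's 75th percentile), with circles, squares, triangles and diamonds for replicates 1 to 4, blue for control-labelled and red for cΔex3-labelled arrays, and a black line at the group mean. Every Ugt2b gene lies at 3.59 or higher on the control-labelled arrays and below 0 on the others, and cΔex3-labelled array 1 is the lowest for each Ugt2b gene.

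The soluble glutathione S-transferase genes were mostly lower. Of 21 tested, 13 were lower, 3 were higher and 5 did not pass, beside 29.0% lower and 24.0% higher of all genes. The median difference was −1.64. With quantile normalisation 9 were lower and 4 higher. All 3 alpha-class genes measured and all 3 pi-class genes were lower.

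Gsta2, of the alpha class, had the largest fall of them. Its levels were 6.14, 5.61 and 5.19 on the control-labelled arrays against −4.15, −3.66, −4.40 and −0.44 on the cΔex3-labelled arrays, a difference of −8.80 ± 0.95 (SE; limma, adjusted p = 0.000379). Array 4 was higher than the other 3 of its group and still below every control-labelled array. Gsta3, whose enzyme detoxifies the epoxide of aflatoxin, kept a level above the 75th percentile everywhere, at 8.86, 9.05 and 8.55 against 5.25, 4.94, 4.99 and 5.15, a difference of −3.74 ± 0.18 (limma, adjusted p = 1.73e-05). Its SD was 0.25 and 0.14 in the 2 groups, and no array stood apart. Gsta4, which acts on the lipid aldehyde hydroxynonenal, differed by −1.80 ± 0.20.

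The pi-class gene Gstp3 read 0.78, 0.33 and 0.31 against −4.92, −5.17, −5.23 and −5.08, a difference of −5.57 ± 0.19 or 47.7-fold (limma, adjusted p = 8.6e-06). No array stood apart in either group. Gstp1, the pi-class enzyme most studied in drug metabolism, gave 7.06, 7.26 and 6.78 against 3.03, 3.31, 3.23 and 3.86, which is −3.67 ± 0.24 (limma, adjusted p = 5.08e-05). Gstp2 stood at 8.94, 8.89 and 8.54 against 5.97, 6.32, 6.15 and 6.40, a difference of −2.58 ± 0.19 (limma, adjusted p = 7.46e-05), which was −1.57 with quantile normalisation and −1.51 in the deposited series values. The promoters of Gstp1 and Gstp2 were 78.1% identical over 250 bases, and their transcripts may share probes; the 2 probes of Gstp2 gave −2.58 and −3.38, those of Gstp1 −3.67 and −3.52.

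Single-gene classes were lower as well. Gstk1, the kappa-class enzyme of mitochondria and peroxisomes, stood at 6.18, 6.18 and 5.92 against 3.54, 3.72, 3.92 and 4.00, a difference of −2.30 ± 0.18 (limma, adjusted p = 1e-04), which was −1.52 in the deposited series values. Gstz1, which isomerises maleylacetoacetate in tyrosine breakdown, differed by −1.67 ± 0.36 (limma, adjusted p = 0.00695), a call lost with quantile normalisation (−0.77, adjusted p = 0.0978) and with the series values as deposited (−0.65, adjusted p = 0.151).

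The mu-class genes, a cluster on chromosome 3, went different ways. Gstm5 was higher, at 1.86, 1.96 and 1.61 on the control-labelled arrays against 4.93, 5.26, 2.68 and 4.58 on the others, a difference of 2.55 ± 0.60 (SE; limma, adjusted p = 0.0104). Array 3 was the lowest cΔex3-labelled array and still above every control-labelled one. Gstm1 was lower by 1.60, with an SE of 0.36 (limma, adjusted p = 0.00842), and by less with quantile normalisation (−0.72) and in the deposited series values (−0.67), where it still passed. Gstm4 and Gstm3 also passed as lower, at −1.13 (limma, adjusted p = 0.0478) and −0.95 (limma, adjusted p = 0.0482). Both calls were lost when control-labelled array 1 or 2 or cΔex3-labelled array 1 or 3 was left out, over −1.16 to −0.85 for Gstm4 and −0.93 to −0.72 for Gstm3. Quantile normalisation (−0.95 for Gstm4 and −0.47 for Gstm3) and median centring (−1.16 and −0.98) lost both calls too. In the deposited series values Gstm3 lost its call (−0.34). Of the 17 settings, Gstm4 lost its call in 10 and Gstm3 in 11. Over these settings Gstm3 ranged from −4.88, with the mean of its probes, to −0.34. Gstm2, Gstm6 and Gstm7 did not pass, at 1.37, −1.69 and 0.84. Gstm2 passed as higher without control-labelled array 1 (1.79, adjusted p = 0.0422), with quantile normalisation (2.12) and in the deposited series values (2.10), and Gstm6 passed as lower without cΔex3-labelled array 4 (−2.33, adjusted p = 0.00903). Gstm7 read 3.41 on that array and between −1.44 and 0.78 on the other 3, and its difference was −0.02 without it.

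The 2 probes of Gstm3 disagreed in size. The brighter by mean, used above, gave −0.95, while the other read 4.83, 4.77 and 3.43 on the control-labelled arrays against −6.37, −5.20, −5.11 and −1.20 on the others, a difference of −8.81. Both probes name the same transcript accession, and which of them reads Gstm3 alone was not tested. Of 18 conjugation genes with several tested probes, all 18 had probes of the same sign, and 2, Gstm3 and Ugt2b35, had probes that differed by over 1 on the log2 scale. The other probe of Ugt2b35 (−10.59) was well above background on 0 of 4 cΔex3-labelled arrays, so the size of its difference is not measured.

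Gsta3, Mgst1 and Gstm5 carry the core of the antioxidant response element, TGACNNNGC, the motif that the oxidative stress factor Nrf2 binds, and they are shown because the first pair was lower and Gstm5 higher. Capitals mark the core in the 150 bases before the start on GRCm38.p6, at chr1:21240435-21240584, chr6:138140377-138140526 and chr3:107895704-107895853, all on the plus strand; in Mgst1 the match is on the opposite strand.
Gsta3: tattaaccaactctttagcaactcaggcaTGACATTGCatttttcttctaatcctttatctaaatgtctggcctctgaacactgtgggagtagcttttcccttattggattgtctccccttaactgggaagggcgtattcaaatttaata
Mgst1: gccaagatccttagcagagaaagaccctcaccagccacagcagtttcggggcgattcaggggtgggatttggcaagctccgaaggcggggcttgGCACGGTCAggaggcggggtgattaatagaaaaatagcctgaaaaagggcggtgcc
Gstm5: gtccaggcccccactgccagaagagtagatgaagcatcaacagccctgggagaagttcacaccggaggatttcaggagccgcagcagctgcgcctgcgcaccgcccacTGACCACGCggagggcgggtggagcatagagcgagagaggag
The core, searched on both strands of the upstream 250 bases, stood in 4 of the 62 promoters (6.45%, with Gstm7 as the other gene), beside 10.2% of all promoters. GGNCANAGG, part of an element of HNF4 and PPAR receptors, stood in 2 of them, both of Gstm1 (3.23%, beside 7.15%).

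The theta-class genes, next to each other on chromosome 10, were not called in 1 direction. Gstt1, which acts on small halogenated compounds, differed by −2.30 ± 0.30 (limma, adjusted p = 0.000904; −1.46 with quantile normalisation and −1.40 in the deposited series values), Gstt2 by −1.39 ± 0.46 (limma, adjusted p = 0.0383) and Gstt3 by −1.64 (adjusted p = 0.0823, not past). The call for Gstt2 was lost without any 1 of the 3 control-labelled arrays or without cΔex3-labelled array 1 or 3, at −1.47 to −1.37 with adjusted p from 0.0654 to 0.102. It was also lost with quantile normalisation (−1.03) and median centring (−1.42), and in 10 of the 17 settings in all. Gstt3 passed without control-labelled array 3 (−2.30) or cΔex3-labelled array 4 (−2.08). Gstt4, between Gstt1 and Gstt2, was higher: it was well above background on 0 of 3 control-labelled and 4 of 4 cΔex3-labelled arrays, where it read −2.49, −4.06, −3.97 and −1.37. Set against the lowest signals well above background on the control-labelled arrays (or its own, −6.72, −7.78 and −5.97, where higher), it was at least 8.16-fold higher; the fitted difference of 3.85 had an adjusted p of 0.00491 by limma and was 0.88 (adjusted p = 0.157) with normexp; in the deposited series values it passed with a smaller difference.

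Gsto2, an omega-class enzyme that reduces dehydroascorbate, was higher. It stood at −3.32, −3.50 and −3.69 against −0.48, −0.52, −0.91 and −0.44, a difference of 2.92 ± 0.19 (SE; limma, adjusted p = 4.59e-05), with no array apart from its group. Its neighbour on chromosome 19, Gsto1, did not pass, at −1.33 (adjusted p = 0.055), and passed as lower without control-labelled array 3 (−1.65, adjusted p = 0.0485) and also without cΔex3-labelled array 3 (−1.61, adjusted p = 0.0304). The difference between the neighbours was not tested.

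**Figure D3:**
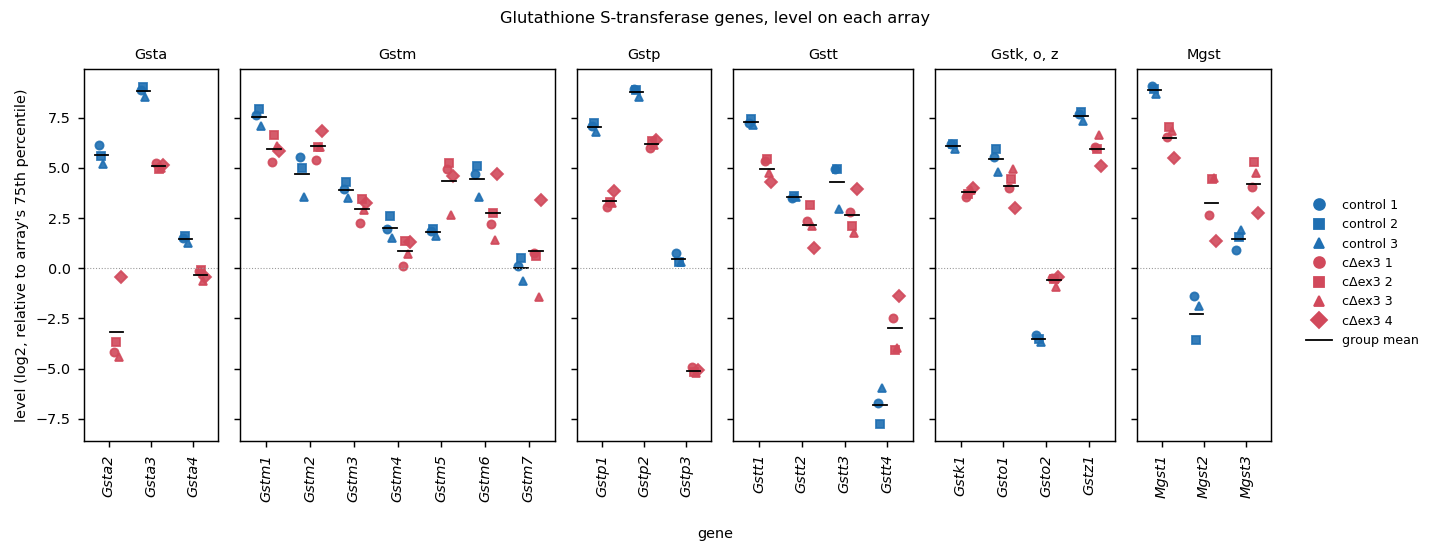
Level of each glutathione S-transferase gene on each array (log2, relative to the array's 75th percentile), with blue for control-labelled and red for cΔex3-labelled arrays, a marker shape per replicate and a black line at the group mean. The pi-class genes separate with little spread, Gstm5, Gsto2, Gstt4, Mgst2 and Mgst3 lie higher on the cΔex3-labelled arrays, and array 4 is apart for Gsta2 and Gstm7.

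The microsomal glutathione S-transferases, membrane proteins of another family, split in direction. Mgst1, an abundant detoxifying enzyme of the endoplasmic reticulum and mitochondria, was lower, at 9.06, 8.91 and 8.68 on the control-labelled arrays against 6.51, 7.02, 6.85 and 5.50 on the others, a difference of −2.41 ± 0.38 (SE; limma, adjusted p = 0.00185), which was −1.38 with quantile normalisation and −1.20 in the deposited series values. Array 4 was the lowest cΔex3-labelled array. Mgst2, whose enzyme can make leukotriene C4, rose, from −1.36, −3.57 and −1.87 to 2.66, 4.43, 4.47 and 1.35, which is 5.49 ± 0.90 or 45.0-fold (limma, adjusted p = 0.00232). Arrays 2 and 3, the pooled ones, were the highest and array 4 the lowest, and within slide rows 1 and 2 the difference was 5.12 and 5.28. Mgst3, a glutathione peroxidase and transferase of the same family, stood at 0.90, 1.56 and 1.89 against 4.03, 5.31, 4.72 and 2.75, a difference of 2.75 ± 0.60 (limma, adjusted p = 0.00781). It fell short of the threshold with the 4 arrays of 1 mouse only (2.16, adjusted p = 0.0532).

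The 3 relatives of the Mgst genes in the same membrane family were read as well. Alox5ap, the activating protein of leukotriene synthesis, differed by 2.00 ± 0.36 (limma, adjusted p = 0.0036) and Ltc4s, leukotriene C4 synthase, by 2.56 ± 0.79 (limma, adjusted p = 0.0309), both higher. The call for Ltc4s was lost without any 1 of the control-labelled arrays or without cΔex3-labelled array 2 or 3, over 2.10 to 2.71, and with the arrays of 1 mouse only (1.22). Ptges, prostaglandin E synthase, was lower by 1.23 (limma, adjusted p = 0.00111) on its brightest probe, but the mean of its probes was 0.96 higher (adjusted p = 0.0158), so its direction depends on the probe; the call was also lost with quantile normalisation (−0.41) and in the deposited series values (−0.23). The order of the arrays was the same for Mgst3 and Ltc4s on the cΔex3-labelled side, with array 2 highest and array 4 lowest. The medians of the adipocyte list on arrays 1 to 4 of that label were 7.19, 7.38, 7.73 and 6.27. They too were lowest on array 4, but highest on array 3. The part of adipocyte RNA in these levels was not tested.

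Sulfotransferase genes passed in both directions. Of 20 with a probe, 15 were tested: 6 were lower, 2 were higher and 7 did not pass, beside 29.0% lower and 24.0% higher of all genes, and the median difference was −1.97. Over the other settings 4 to 10 were lower and 1 to 2 higher. The other 5, Sult1c1, Sult2a3, Sult2a4, Sult3a2 and Sult6b2, were well above background on fewer than 3 arrays and were not tested.

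On chromosome 5, the 3 Sult1 genes that lie beside the Ugt2 cluster went opposite ways. Sult1b1, which sulfates thyroid hormone and phenols, stood at 4.14, 4.32 and 3.25 on the control-labelled arrays against −3.66, −3.95, −6.76 and −2.61 on the others, a difference of −8.15 ± 0.93 (SE; limma, adjusted p = 0.00048). Sult1d1, which sulfates catecholamines, gave 3.58, 3.70 and 2.77 against −2.19, −3.02, −6.51 and −2.92, which is −7.01 ± 1.00 (limma, adjusted p = 0.00127). Neither was above background on cΔex3-labelled array 3, the lowest of its group for both. Sult1e1, which inactivates oestrogens, was higher, from 1.33, −2.01 and −0.64 to 4.94, 3.03, 2.99 and 4.30, a difference of 4.26 ± 0.85 or 19.1-fold (limma, adjusted p = 0.00528). Its levels spread over an SD of 1.68 on the control-labelled arrays, and the groups did not overlap. Along the chromosome, all tested conjugation genes from Ugt2b34 to Sult1d1 were lower and Sult1e1, the next in order, was higher.

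The Sult2a genes, which sulfate bile acids and steroids such as DHEA, varied within the control-labelled group. Sult2a8 was the steady one, at 6.90, 7.71 and 7.20 against 0.72, 0.67, 0.91 and 0.05, a difference of −6.68 ± 0.28 or 103-fold (limma, adjusted p = 1.08e-05). Sult2a7 read 6.51, 0.55 and 1.81 against −5.99, −4.76, −3.67 and −2.21, which is −7.11 ± 1.52 (limma, adjusted p = 0.00705). Control-labelled array 1 was the highest and array 2 the lowest for Sult2a7, as for Sult2a1 (−2.48, −5.51 and −3.58), Sult2a2 (−2.13, −4.69 and −3.47) and Sult2a6 (−1.98, −6.38 and −3.27). Sult2a6 was well above background on 2 of 3 control-labelled arrays, and not on array 2. On the cΔex3-labelled arrays Sult2a1, Sult2a2 and Sult2a6 were well above background on array 4 alone, at −3.85, −1.27 and −1.81. They did not pass, with fitted differences of −3.46, −1.97 and −2.40, which were −1.04, −0.56 and −0.65 in the deposited series values. With normexp, Sult2a1 passed as lower (−1.59, limma, adjusted p = 0.0196), while Sult2a2 and Sult2a6 did not pass. Without array 4 limma called all 3 lower, but no remaining cΔex3-labelled array was then well above background, so the size of those differences is not measured. The medians of the hepatocyte list on the control-labelled arrays were 9.13, 9.18 and 8.86. The part of hepatocyte RNA in the Sult2a levels was not tested.

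Sult2b1, the cholesterol sulfotransferase of the epidermis, was the other higher gene. It stood at −4.21, −5.01 and −4.35 against −3.46, −1.40, −0.98 and 1.91, a difference of 3.54 ± 1.13 (SE; limma, adjusted p = 0.0337). Array 4 was the highest, and array 1 lay just above the control-labelled arrays. The call was lost without any 1 of the control-labelled arrays or without cΔex3-labelled array 2 or 3, at 3.30 to 3.70 with adjusted p from 0.0602 to 0.102, and with normexp (2.31), and within slide rows 1 and 2 it differed by 1.15 and 4.19. The keratinocyte list was also highest on array 4, with a median of −0.97, beside −4.55 to −3.73 on the other 3 cΔex3-labelled arrays and −4.28 to −4.06 on the control-labelled ones. Of its 9 tested members, 1 passed as higher, 2 as lower and 6 did not pass. The epididymis and testis germ cell lists were highest on array 4 as well, with medians of 2.08 and 0.38. The part of these cell types in the Sult2b1 level was not tested.

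The remaining sulfotransferases differed less or did not pass. Sult3a1 read −4.11, −5.27 and −5.44 on the control-labelled arrays against −9.39, −8.10, −8.35 and −6.83 on the others, where it was well above background on array 4 alone, so that its fitted difference of −3.22 ± 0.62 (limma, adjusted p = 0.00449) rests on signals of which 3 of 4 in that group were not well above background. It passed as lower with normexp and in the deposited series values too, at −1.45 and −0.71. Sult1a1, the main phenol sulfotransferase, stood at 6.58, 6.91 and 5.73 against 5.11, 5.63, 5.32 and 4.28, which is −1.32 ± 0.40 (limma, adjusted p = 0.0293). Its groups lay close to each other without overlap, and the call was lost without control-labelled array 1 or 2 or cΔex3-labelled array 1 (−1.33 to −1.07), with quantile normalisation (−0.48) and in the deposited series values (−0.46). Sult4a1, Sult5a1, Sult1c2 and Sult6b1 did not pass, at −0.90, −0.87, −1.03 and 1.37. The groups did not overlap for Sult4a1, which passed as lower with normexp (−0.92, limma, adjusted p = 0.0496). Sult5a1 passed as lower without control-labelled array 3 (−1.30, adjusted p = 0.0463). Sult1c2 was 0.57 higher without cΔex3-labelled array 3, the only array of the 7 on which it was below 0. Sult6b1, well above background on 1 of 3 control-labelled and 3 of 4 cΔex3-labelled arrays, passed as higher without control-labelled array 1 (2.24, adjusted p = 0.0121) and was −0.51 with normexp.

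**Figure D4:**
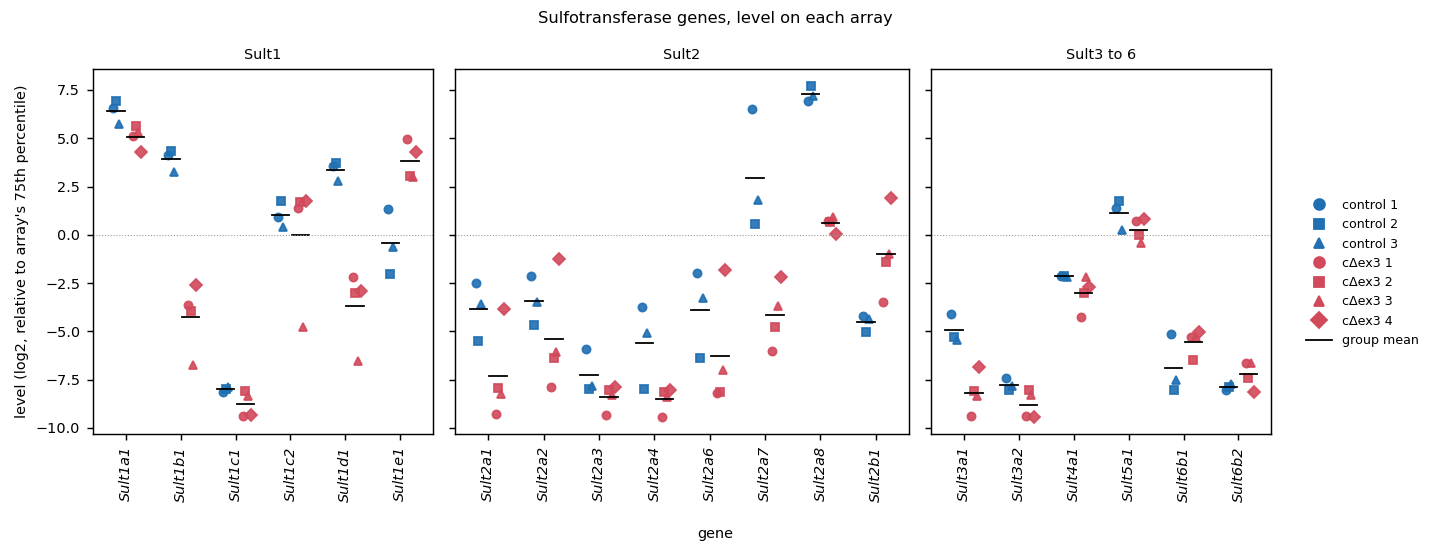
Level of each sulfotransferase gene on each array (log2, relative to the array's 75th percentile), with blue for control-labelled and red for cΔex3-labelled arrays, a marker shape per replicate and a black line at the group mean; the 5 untested genes are included. Sult1b1, Sult1d1 and Sult2a8 lie lower and Sult1e1 and Sult2b1 higher on the cΔex3-labelled arrays, while Sult2a1, Sult2a2 and Sult2a6 overlap through array 4.

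Array 4 of the cΔex3 label was the highest of its group for Gsta2, Gstm6, Gstm7, Gstt4, Sult2a1, Sult2a2, Sult2a6, Sult2a7 and Sult2b1, among others. It was also the highest array for the epididymis list (median 2.08, beside −6.53, −2.37 and −0.68 on arrays 1 to 3 and −6.61 to −6.15 on the control-labelled arrays), for the testis germ cell list (0.38, beside −3.60 to −1.98) and for the keratinocyte list. Of the 12 epididymis markers, 4 were well above background on each control-labelled array and 7, 8, 9 and 11 on the cΔex3-labelled arrays 1 to 4. Without array 4, 38 conjugation genes were lower and 7 higher. Calls over all 18031 genes rose as well, from 5237 lower and 4334 higher with every array to 5569 and 4921 without array 4. The part of these cell types in the levels was not tested.

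**Figure D5:**
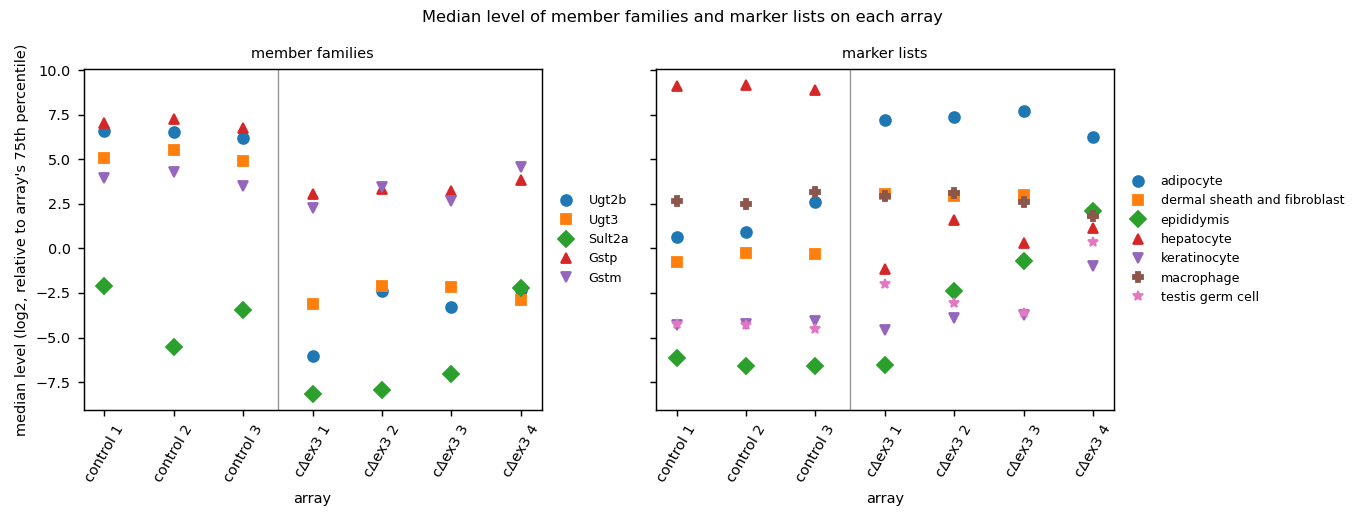
Median level (log2, relative to the array's 75th percentile) of conjugation gene families, left, and of marker lists, right, on each of the 7 arrays. The Ugt2b medians fall from between 6.20 and 6.57 on the control-labelled arrays to between −6.04 and −2.36, and the hepatocyte medians from between 8.86 and 9.18 to between −1.14 and 1.57, while the adipocyte medians lie at 6.27 to 7.73 on the cΔex3-labelled arrays.

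Lists of genes that make, carry or break down the 3 donors and their conjugates were read beside the shares of all genes, 29.0% lower and 24.0% higher. For glutathione synthesis and turnover, 9 of 15 tested genes were lower and 4 higher, with a median of −2.08. The higher genes were Dpep1, Ggt1, Ggt5 and Ggt7, all enzymes of breakdown. Other enzymes of breakdown passed as lower, Chac2 and Ggt6 (−4.93) among them. Oplah (−2.24) and Anpep (−2.08) of the same list passed as lower too. Gclc, the catalytic subunit of the enzyme that limits glutathione synthesis, differed by −3.34 ± 0.27 (limma, adjusted p = 0.000119), and Chac2, which degrades glutathione, by −3.16. Nat8, which completes mercapturic acids from glutathione conjugates, differed by −6.80 and Dpep1, a dipeptidase that trims them, by 5.30 ± 0.24 (limma, adjusted p = 1.27e-05). For UDP-glucuronic acid supply and deconjugation, 6 of 8 were lower and 0 higher by limma, with 1 higher at an unadjusted p under 0.05, and the median was −2.54. Slc35d1, which carries the donor into the endoplasmic reticulum, differed by −3.83 ± 0.17 (limma, adjusted p = 1.3e-05), its relative Slc35d2 by −3.49, Entpd5, which hydrolyses UDP in that compartment, by −3.67 and Ugdh, which makes the donor, by −2.53.

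For PAPS and desulfation, 4 of 9 were lower and 0 higher by limma, with 2 higher at an unadjusted p under 0.05, and the median was −0.85. In the deposited series values 3 were lower and 2 higher, and with median centring 4 and 2. The sulfate carrier Slc26a1 differed by −7.18 ± 0.25 (limma, adjusted p = 8.74e-06), the PAPS synthase Papss2 by −2.22 (−1.44 in the deposited series values), the phosphatase Bpnt1 by −1.11 and the sulfite oxidase Suox by −2.00, a call that was lost without any 1 of the 7 arrays but cΔex3-labelled array 4 (−2.05 to −1.75), with quantile normalisation (−1.30) and in the deposited series values (−1.29). Among other conjugating enzymes, which join acyl, amino acid, acetyl or methyl groups or open epoxides, 16 of 19 were lower and 0 higher by limma, also with 0 higher at an unadjusted p under 0.05, and the median was −2.54. Acsm1, which activates acids for glycine conjugation, differed by −9.21, the glycine N-methyltransferase Gnmt by −8.46 and the glycine N-acyltransferase Glyat by −8.34. Baat, which joins bile acids to taurine and glycine, was well above background on 3 of 3 control-labelled and 0 of 4 cΔex3-labelled arrays and was at least 604-fold lower on the latter.

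Genes of the sensors that are known to control conjugation genes were lower or did not pass: 9 of 15 were lower and 0 higher by limma, with 0 higher at an unadjusted p under 0.05, and the median was −1.36. The fatty acid receptor Ppara differed by −5.47 ± 0.25 (limma, adjusted p = 1.48e-05), the xenobiotic receptors Nr1i2 (PXR) and Nr1i3 (CAR) by −8.80 and −3.70 (−6.83 for Nr1i3 with the mean of its probes), and the aryl hydrocarbon receptor Ahr by −2.56. Hnf4a, named after its value had been seen because a motif searched above is bound by its factor, differed by −7.22 ± 1.19 (limma, adjusted p = 0.00234). Nfe2l2, which encodes Nrf2 and is named for the same reason, did not pass, at −0.71 (limma, adjusted p = 0.0523). Of 15 Nrf2 target genes outside the conjugation families, 7 were lower and 2 higher, with a median of −0.78, but 5 were lower and 4 higher with quantile normalisation and in the deposited series values, beside 29.0% lower and 24.0% higher of all genes. Gclc, Gclm and Prdx1 differed by −3.34, −2.61 and −1.86 (Prdx1 by −1.03 with quantile normalisation and −1.01 in the deposited series values), while G6pdx differed by 4.21.

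The Golgi sulfotransferases, which sulfate matrix sugars and tyrosines rather than small compounds, passed in both directions. Of 28 tested, 9 were higher and 6 lower, with a median of 0.70, beside 24.0% and 29.0% of all genes; with normexp 8 were higher and 9 lower. Chst1, a keratan sulfotransferase, stood at −1.74, −1.26 and −1.17 against 6.38, 6.26, 6.42 and 5.30, a difference of 7.48 ± 0.32 (limma, adjusted p = 1.16e-05). The chondroitin sulfotransferase Chst12 differed by 4.27 and the uronyl sulfotransferase Ust by 3.54 (1.86 with normexp and 2.32 in the deposited series values), and Chst11, well above background on 0 of 3 control-labelled arrays and 4 of 4 others, was at least 27.9-fold higher. The difference between these genes and the cytosolic sulfotransferases was not tested.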

How the data were processed

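RNA of sorted cells was read on 7 one-colour arrays, 3 labelled control and 4 labelled cΔex3, grouped by the sample titles. Per the file headers, Agilent Feature Extraction 10.7.1.1 read the scans, and its processed signal is a linear intensity after background subtraction and spatial detrending, with no normalisation between arrays. The normexp setting (offset 50) started from the deposited raw spot and local background intensity. Deposited flags of each spot, other values of 0 or 1, marked outliers, saturated spots (0) and spots well above background (68.1% to 82.0% of probes per array). A series table of log2 values that the authors deposited had column medians of 7.41, and its making is not given in the sources used here. On each array it kept the rank order of the intensities after the normexp background correction (Spearman rho of 1). It was used as a setting only.

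Levels were scaled by subtracting, on the log2 scale, the 75th percentile of each array; control and outlier spots were dropped and spots of a probe averaged. Probes were named through accessions and a RefSeq gene table (GRCm38.p6); 28026 of 55681 had a name, and the array annotation names another build, so that gene coordinates are left out and only RefSeq promoter coordinates are printed. Tests took probes that were well above background on 3 or more arrays, and a gene's brightest probe by its mean of all arrays stood for it, 18031 genes in all. The test was limma 3.58.1 (lmFit and eBayes without covariates) in R 4.3.3. On simulated data over these 18031 genes, with 100 of them changed, 5% of 2-fold and 63% of 4-fold changes were recovered, 0 in the wrong direction. Far more genes, 9571, were called in the real comparison, so these shares need not carry over to it. Where a group had 0 arrays well above background, the fold is a bound against the arrays' lowest signals above background, and its adjusted p belongs to the fitted difference.

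Values on every array are printed, within each of the soluble Gst, Mgst, Ugt and Sult groups, for members past the threshold, up to the 6 largest differences in each direction, and, for each pathway list, up to 4 genes of smallest p; other members are given by difference. The members and lists were chosen with earlier results of these data known. The settings tried were normexp, quantile and median scaling, the deposited log2 values, both filters, the mean of probes, leaving out each array, arrays of 1 mouse, and blocks for replicate number and slide row. Protein identity between members was not computed, as no protein sequence was used here. Of what was planned, 1 promoter motif and 1 gene of the sensor list are not reported here.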

Additional observations from a re-analysis of the deposited data

Results flagged for a closer look

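In the group of 4 cΔex3-labelled arrays, the levels of each tested conjugation gene were searched for an array far from the others by Dixon's criterion, which chance meets in about 1 in 20 genes; 3 of 53 genes had such an array. Sult1c2 read −4.79 on array 3, where the next lowest array read 1.37. Sult6b1 read −6.51 on array 2, where the next lowest read −5.28. Ugt1a6b, a phenol-conjugating form, read 4.23 on array 4, where the next lowest read 5.10. The control-labelled group of 3 arrays was not examined in this way.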

How the results depend on the processing

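Of the 40 conjugation genes past the threshold, 29 kept call and direction in all 17 settings, and the share of all genes called ranged from 37.4% to 58.2%. The median difference of all genes, −0.08, was −0.22 with normexp, 0.13 with quantile normalisation and 0.11 in the deposited series values. Leaving out 1 array at a time gave 29 to 38 conjugation genes lower and 6 to 8 higher: soluble Gst 10 to 15 and 3 to 4, Mgst 1 and 2, Ugt 13 to 14 and 0, Sult 5 to 9 and 1 to 2. Quantile normalisation and the deposited values each gave 28 conjugation genes and 9 soluble Gst genes lower. The count of higher Sult genes was 1 with normexp, in the deposited series values, with arrays of 1 mouse only and with slide row as a block, and the count of higher Mgst genes was 1 with arrays of 1 mouse only, where Mgst3 (2.16), Sult2a7 (−7.63), Sult3a1 (−3.42), Ugt2a1 (−1.83) and Alox5ap (1.68) also lost their calls; that setting has fewer arrays. The replicate numbers are shared by the labels but did not pair the arrays (correlations of deviations −0.01, 0.00 and 0.02), and the fit with the replicate number as a block, which makes no use of cΔex3-labelled array 4, called 10 Sult, 15 soluble Gst and 39 conjugation genes lower. Among the lists, higher genes of UDP-glucuronic acid supply numbered 1 with normexp, quantile normalisation and the deposited values and 0 to 1 with 1 array left out. Higher genes of PAPS supply numbered 1 with normexp, quantile normalisation and the filter of every array of a group, 2 with median centring, the deposited values and the replicate block, and 0 to 2 with 1 array left out. Higher Mgst relatives numbered 0 with arrays of 1 mouse only, 1 with slide row as a block and 1 to 2 with 1 array left out, and lower ones 0 with quantile normalisation, the deposited values and the mean of probes. Higher Nrf2 targets numbered 4 with quantile normalisation and in the deposited values. Golgi sulfotransferases numbered 7 to 13 higher and 5 to 9 lower over all settings. The sign turned for Sult6b1 with normexp (−0.51), for Ptges with the mean of probes (0.96), for Sult1c2 without cΔex3-labelled array 3 (−1.62 to 0.57 over the arrays left out) and with arrays of 1 mouse only (0.22), and for Gstm7 without cΔex3-labelled array 4 (−0.019 to 1.60 over the arrays left out) and with the replicate block (−0.019). The causes were not tested. The settings for lists other than normexp, quantile normalisation and leaving out arrays were chosen after seeing the data. Signal over background limits Ugt2b36, Ugt2b1, Sult1b1 and Sult1d1, which lacked it on 1 cΔex3-labelled array each, and more so Sult3a1, Sult2a1, Sult2a2 and Sult2a6, which lacked it on 3 of 4, Sult6b1 and Gstt4.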

Other observations

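The γ-glutamyltransferases, membrane enzymes that start the breakdown of glutathione and its conjugates, were divided between the groups, and they are named here after their values had been seen. Ggt1 was well above background on 0 of 3 control-labelled and 4 of 4 cΔex3-labelled arrays, where it read −0.76, −0.58, −2.66 and 1.27, and was at least 38.9-fold higher on the latter (limma on the fitted difference, adjusted p = 0.00128). Ggt5, which cleaves leukotriene C4, differed by 2.25 ± 0.33 (SE; limma, adjusted p = 0.0015) and Ggt7 by 1.01 ± 0.30 (limma, adjusted p = 0.026). Ggt6 differed by −4.93 ± 0.70 (limma, adjusted p = 0.00127), with 3.20, 3.52 and 2.46 against −1.45, −0.25, −2.58 and −3.22. Gss and Gclm, which take part in the synthesis of glutathione, differed by −2.67 and −2.61, and Gsr, which regenerates it from its oxidised form, by −1.28.

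Among the Golgi sulfotransferases, chosen with their values in view, the genes that passed as lower were enzymes of heparan sulfate, except Chst13. Hs2st1 stood at 5.18, 5.18 and 3.49 on the control-labelled arrays against 0.11, 1.47, 0.85 and −0.47, a difference of −4.12 ± 0.60 (SE; limma, adjusted p = 0.00135). Hs6st1, Ndst1, Hs3st3a1 and Hs3st3b1 differed by −2.17, −1.97, −1.71 and −1.14, and Chst13, a chondroitin sulfotransferase, by −4.19. Hs3st1 and Ndst3, likewise enzymes of heparan sulfate, passed as higher, at 0.83 and 0.79, and so did Chst14, which acts on dermatan sulfate, at 1.72. The difference between the heparan and chondroitin enzymes was not tested.

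Of the 5 sulfotransferase genes too dim to be tested, Sult2a4 was well above background on 2 of 3 control-labelled and 0 of 4 cΔex3-labelled arrays and Sult6b2 on 0 of 3 and 1 of 4, while Sult1c1, Sult2a3 and Sult3a2 were on 0 of 7.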
